A study of Mus musculus with 7 samples.

Results

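The libraries described here come from the islets of the 4 db/db mice that received the AAV-GFP control vector, 4 of the 7 libraries in the series. The rule takes the 4 columns of the deposited table whose labels name that vector, and uses no measured value. The db/db mouse lacks a working long form of the leptin receptor and becomes obese and diabetic, so every library here is of that genotype, and no lean or uninjected mouse is among them. The vector is an adeno-associated virus (AAV) for green fluorescent protein (GFP), a control cargo, given 4 weeks before islets were isolated, and the islets then spent 12 hours in culture before RNA was extracted. The sources used here do not give age, sex, strain background or the promoter of the vector. Each mouse gave 1 library, and the mice are stated to be separate biological replicates. Replicate 1 is described by the vector's name and replicates 2 to 4 by a db number, so in this group that wording and the mouse cannot be told apart. The other 3 libraries, from mice with an adipsin vector, were not analysed here, and nothing below compares treatments.

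Pancreatic islets are clusters of hormone cells in a gland made mostly of digestive-enzyme (acinar) cells and ducts. Beta cells secrete insulin and islet amyloid polypeptide, alpha cells glucagon, delta cells somatostatin and PP cells pancreatic polypeptide, and each hormone is cut from a precursor in dense granules before release. Mice have a pair of insulin genes, Ins1 and Ins2, and in db/db mice beta cells secrete under a heavy and lasting demand for insulin.

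Messenger RNA was sequenced in bulk, so each value sums over all cells of an islet preparation, and fewer cells of a type cannot be told apart from less RNA per cell. Values are given as the share of a library's counts, as CPM (a count scaled to the size of its library) to compare 1 gene across mice, or as TPM (a count divided by the gene's exon length and scaled likewise) to compare genes with each other. Values listed in a row run from replicate 1 to replicate 4, which is only an order of names. Total counts were 43997400, 31248002, 39328690 and 29601707, and 3 counts, taken as the floor of detection, correspond to 0.0682 to 0.101 CPM. Of 51912 genes in the table, 27499 had a count in these libraries and 13098 reached 1 CPM in every library, 12291 of them protein coding. Cfd, the adipsin gene, had 1, 0, 0 and 0 counts, and every library had Ddx3y, a gene of the Y chromosome, at 1591 counts or more beside 3 or fewer of Xist, which is active in females. Lepr, the leptin receptor gene, had 3, 5, 12 and 15 counts, which checks nothing, because the db mutation alters a splice form and counts per gene do not separate these. No comparison between groups is tested, because a single group is described, and the spread between its 4 mice is given in place of a test.

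Transcripts of beta cell hormones led the islet transcriptome in every mouse. Ins2, the conserved insulin gene (ENSMUSG00000000215, chromosome 7, 142678656 to 142743381, minus strand, GRCm38), ranked first at 251986, 227684, 215567 and 244910 TPM, and it took 13.2%, 11.4%, 11.2% and 13.3% of all counts. Iapp, which encodes islet amyloid polypeptide (chromosome 6, 142298423 to 142303961), ranked 2 at 121738, 101895, 89500.1 and 93303 TPM. Ins1, the second insulin gene (chromosome 19, 52264297 to 52265476), ranked 3 at 36808, 40656, 59558 and 59619.6 TPM. The 3 genes kept this order in each library and their TPM ranges did not overlap. Together they made up 19.5, 16.9, 17.1 and 19.7% of counts, a mean of 18.3% ± 1.51 (SD, n = 4), and 38.6% ± 2.20 of all TPM (SD, n = 4). Ins1 was less even than its partner: its CPM spanned a 1.73-fold range between mice against 1.16-fold for Ins2, with replicates 1 and 2 below replicates 3 and 4. The Ins1 level was therefore 14.6, 17.9, 27.6 and 24.3% of the Ins2 level in TPM, and these ratios rest on annotated exon lengths of 1062 and 1312 bases. Iapp stood at 48.3, 44.8, 41.5 and 38.1% of Ins2.

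The sequence just upstream of Ins1 is shown because the gene carries one of the highest transcript loads in the tissue. It is the RefSeq window of 250 bases before the annotated start of transcription, on the plus strand of GRCm38.p6, chr19:52264047-52264296, with the letters GCCATCTG, an E box of insulin promoters, in capitals at 86 to 79 bases before the start.
Ins1: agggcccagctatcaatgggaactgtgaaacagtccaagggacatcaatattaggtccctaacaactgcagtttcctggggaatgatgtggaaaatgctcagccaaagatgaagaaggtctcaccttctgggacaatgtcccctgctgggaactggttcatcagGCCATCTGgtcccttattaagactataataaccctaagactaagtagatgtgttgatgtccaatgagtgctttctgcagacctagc

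Searched on both strands, GCCATCTG was found upstream of 344 of 27025 genes with a window (1.27%), and the window of Ins1 holds it while that of Iapp does not. Ins2, the most abundant gene, had no window and was not searched. A match describes letters only.

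The other islet hormones followed at a distance. Gcg, the glucagon precursor gene of alpha cells (chromosome 2, 62474530 to 62483650), ranked 4 at 14439.6, 13912, 9466 and 10401 TPM. Ppy, for pancreatic polypeptide (chromosome 11, 102099930 to 102101319), ranked 13 at 4820.3, 5652, 3276 and 8865 TPM. Sst, for somatostatin (chromosome 16, 23889573 to 23890958), ranked 24 at 1703, 1939, 1550.3 and 2880.4 TPM. Gcg was therefore 4.25% to 6.11% of Ins2, Ppy 1.52% to 3.62% and Sst 0.676% to 1.18%. Gcg was high in replicates 1 and 2 and lower in replicates 3 and 4, whereas Ppy and Sst were both highest in replicate 4 and lowest in replicate 3. The Ppy level came to 33.4, 40.6, 34.6 and 85.2% of the Gcg level, a 2.55-fold range, against 1.27-fold for the Iapp level over that of Ins2. The wide range of Ppy over Gcg came from replicate 4, and replicates 1 to 3 lay close together. Pyy, for peptide YY, which lies beside Ppy on chromosome 11 and is made in several islet cell types, ranked 19 at 3474, 3049, 2367 and 4033 TPM. In each library the order was Ppy, Pyy, Sst, although the ranges of neighbours in this order overlapped between mice. All 6 markers of the islet hormones were thus among the 24 genes with the highest mean TPM. Between Gcg and Ppy came the granin genes Scg2, Chga and Chgb, the acinar enzyme gene Ctrb1, 3 mitochondrial genes and Gm23935, an annotated microRNA whose length of 57 bases makes its TPM of 7336 ± 4751 (SD, n = 4) hard to set beside the others.

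**Figure D1:**
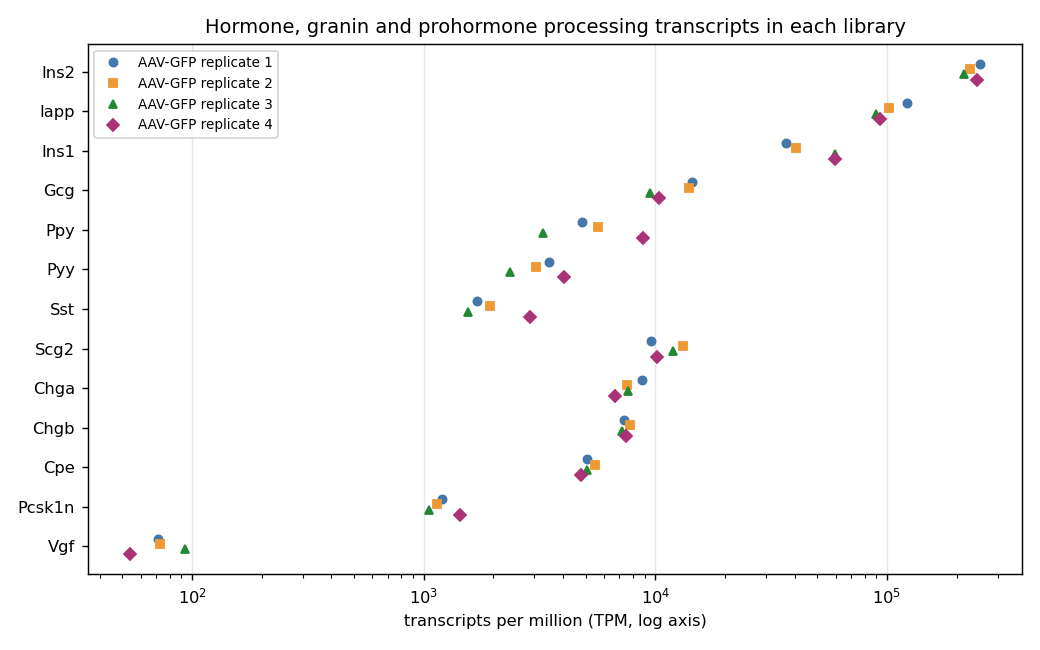
TPM on a log axis of hormone, granin and prohormone processing genes, 1 point per AAV-GFP library. Ins2, Iapp and Ins1 form 3 separate tiers, Ppy spans 3276 to 8865 TPM, and the 4 points of Cpe and of Chgb nearly coincide.

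How far 4 mice of one group lie apart sets what any single value is worth. Over the 13777 genes with a mean of at least 1 CPM, the highest library exceeded the lowest by a median factor of 1.33, and 1518 genes, or 11.0%, had a 2-fold range or more. A 4-fold range was found in 306 genes and a 10-fold range in 91. The median coefficient of variation was 12.7%, against 3.38% from counting alone, and 669 genes (4.86%) varied no more than counting would give. The share of genes with a wide range was smallest at middle abundance: 37.6% of genes between 1 and 3 CPM had a 2-fold range, 2.79% of those between 100 and 300 CPM, and 19.1% of the 47 genes above 1000 CPM. Those 9 abundant genes were 4 encoded by mitochondria (mt-Cytb, mt-Nd1, mt-Nd2 and mt-Nd4), 3 of acinar cells (Ctrb1, Cela1 and Prss2), Ppy, and Clu, for the secreted chaperone clusterin. The 11.0% set beside the lists below pools all levels and is not matched to the level of a list. The common biological coefficient of variation from edgeR was 0.201. It was 0.157 without replicate 4 and 0.226 without replicate 2, and the number of genes with a 2-fold range went from 1518 to 620 without replicate 4 and to 917 without replicate 1.

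**Figure D2:**
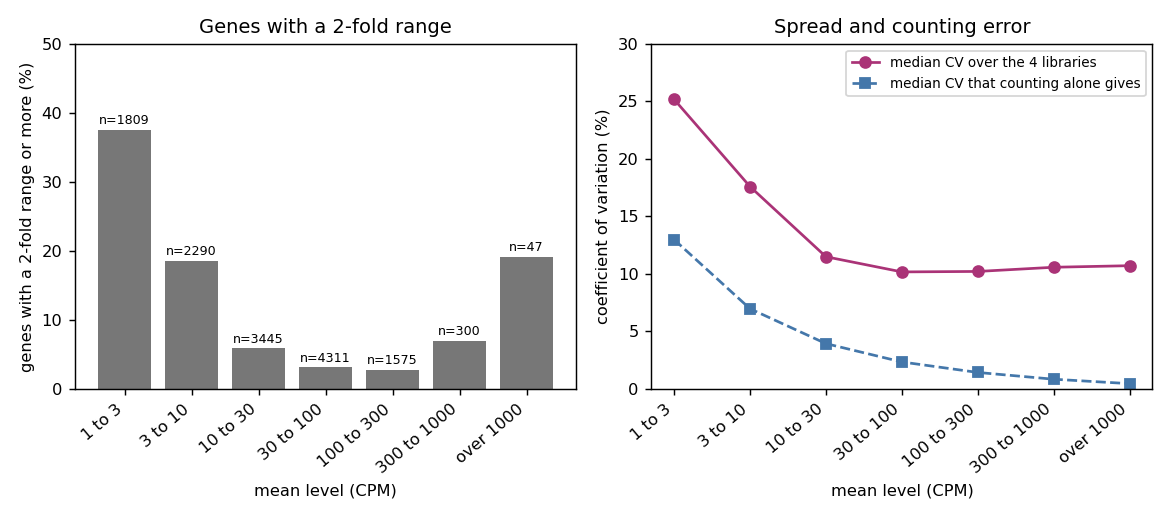
Left, percent of genes whose highest library is at least 2-fold above the lowest, by mean level in CPM, with the number of genes over each bar. Right, median coefficient of variation (CV) over the 4 libraries and the CV that counting alone gives. The share is 37.6% at 1 to 3 CPM, 2.79% at 100 to 300 CPM and 19.1% above 1000 CPM, and the median CV levels off near 10%.

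Replicates 2 and 3 were the closest pair, with 136 genes 2-fold apart and r = 0.993 across genes in log2 CPM, and replicates 1 and 4 the furthest, with 926 genes and r = 0.962. Both correlations run across genes, which are no replicates, and only describe the libraries. Replicate 4 was highest in 30.4% of the 13777 genes and lowest in 36.3%, and replicate 1 was highest in 28.2% and lowest in 30.3%. Replicates 2 and 3 were highest in 22.1% and 19.3% and lowest in 19.4% and 14.0%. At least 2-fold above all 3 others were 206 genes in replicate 4, 61 in replicate 1, 48 in replicate 3 and 1 in replicate 2. At least 2-fold below all others were 123, 114, 6 and 27 genes in the same order. Deviations went along with gene length in more than 1 library. In 5 classes of protein-coding genes by exon length, the shortest had a median log2 deviation of 0.13 in replicate 4 and the longest -0.17. Replicates 2 and 3 went the other way, from -0.056 to 0.101 and from -0.031 to 0.070. Replicate 1 changed less, from -0.037 to -0.010. Each deviation is from the mean of the 4 libraries, so these trends are not independent.

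Most transcription factor genes of beta cells differed little between mice, and a few differed more. Of the 18 with at least 1 CPM, 4 (22.2%) had a 2-fold range, against 11.0% of all genes, although their median range, 1.23-fold, was under the 1.33-fold of all genes. Without replicate 4 none of the 18 had one, and the count was 1 of 18 without replicate 1. Insm1, a zinc finger factor of endocrine development, had the highest level of the list at 264 ± 42.9 TPM (SD, n = 4), and Nkx6-1, which maintains beta cell identity, followed at 212 ± 6.34 TPM (SD, n = 4). Neurod1, an activator of insulin genes, stood at 161, 168, 169 and 145 CPM and did not separate the mice. Mlxipl, which encodes the glucose-responsive factor ChREBP, stood at 498, 269, 263 and 229.7 CPM, and replicate 1 lay apart above the other 3. Rfx3, a ciliogenic factor, was also highest in replicate 1 and lowest in replicate 4, at 41.9, 29.7, 30.2 and 19.8 CPM. Myt1, a zinc finger factor, also had a 2-fold range, at 96.1, 75.5, 71.6 and 47.9 CPM, and was lowest in replicate 4. Mafa, a factor of mature beta cells, ranked only 6668 at 14.6 ± 1.56 TPM (SD, n = 4), against 119.8 ± 10.9 TPM (SD, n = 4) for Pdx1. There is no lean mouse among the libraries against which this level could be read.

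Among 19 beta cell function genes, 4 of 19 had a 2-fold range (21.1%, against 11.0% of all genes), and 2 of 19 without replicate 1 or without replicate 4. G6pc2, the islet glucose-6-phosphatase, was the most abundant at 1412 ± 108 TPM (SD, n = 4), rank 31, with a range of only 1.18-fold. Abcc8 and Kcnj11, the subunits of the potassium channel that couples glucose to insulin release, had ranges of 1.22-fold and 1.11-fold. Slc2a2, the main glucose transporter gene of mouse beta cells, ranged from 41.1 to 72.3 CPM. The incretin receptor genes were less even than these. Glp1r, the receptor for the incretin GLP-1, stood at 231, 186, 177 and 83.2 CPM, a 2.77-fold range in which replicate 4 lay lowest. Gipr, the receptor for the incretin GIP, stood at 30.4, 13.4, 13.4 and 11.7 CPM, with replicate 1 above the others. Ucn3, a peptide of mature beta cells, stood at 203, 145, 159.7 and 101 CPM, just at the 2-fold mark, or at 1.98-fold with the size factors of DESeq2. Tspan1, a tetraspanin, had the widest range of the list, 6.99, 14.1, 32.8 and 9.24 CPM, and followed the acinar genes in being highest in replicate 3.

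Alpha and delta cell markers followed no single order of mice, while the few PP cell markers did. Of 15 alpha cell genes, 3 of 15 had a 2-fold range (against 11.0% of all genes, and 1 of 15 without replicate 4). Ttr, for transthyretin, and Gc, for vitamin D binding protein, both abundant in alpha cells, stood at 933, 751, 664 and 728 and at 522, 602, 599.8 and 509 CPM. Of 9 delta cell genes, 4 of 9 had a 2-fold range, or 44.4%: Pdyn, for prodynorphin, stood at 295, 321, 592 and 362 CPM, highest in replicate 3, whereas Rbp4, for retinol binding protein, Shisal2b and the factor Hhex were highest in replicate 4, as Sst was. Without replicate 4 the delta cell count was 1 of 9, and without replicate 1 or replicate 3 it was 2 of 9. Hhex, which maintains delta cells, stood at 5.80, 6.14, 5.65 and 13.6 CPM, and replicate 4 lay above the other 3. The 3 PP cell genes above 1 CPM, Ppy, Pyy and Cartpt, were all highest in replicate 4 and lowest in replicate 3, and only Ppy had a 2-fold range, which it lost without replicate 3 or without replicate 4.

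Genes of the machinery that packs peptide hormones varied little between mice. All 12 genes for granins and prohormone processing stayed within a 2-fold range, where 11.0% of all genes did not. Their median range was 1.30, against 1.33 for all genes and 1.27 for genes between 300 and 1000 CPM, of which 7% had a 2-fold range. Evenness was thus not particular to this list. Together the 12 genes took 4.14, 4.41, 4.25 and 4.12% of counts. Scg2, for secretogranin II, stood at 11227 ± 1659 TPM (SD, n = 4), Chga, for chromogranin A, at 7669 ± 851 TPM and Chgb, for chromogranin B, at 7439.6 ± 266 TPM. Cpe, for the carboxypeptidase that trims cleaved hormones, ranked 14 with 5116, 5522, 5330.1 and 5182 CPM, a range of 1.08-fold. The convertase genes Pcsk1 and Pcsk2, which cut proinsulin and proglucagon, ranged 1.33-fold and 1.32-fold, and both were highest in replicate 2. The widest member was Vgf, a granin-like precursor, at 81.7, 83.4, 112 and 66.4 CPM. Of 20 granule exocytosis genes, 1 of 20 had a 2-fold range (5%, against 11.0% of all genes, and 0 of 20 without replicate 1 or without replicate 2). It was Doc2b, a calcium sensor of fusion, at 3.97, 1.94, 2.16 and 2.12 CPM. Syt13, a synaptotagmin, and Ptprn, the granule protein IA-2, led that list at 840.4 ± 84.7 TPM and 738 ± 36.7 TPM (SD, n = 4 for both).

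The endoplasmic reticulum (ER) genes were high and even. None of 31 chaperone and unfolded protein response genes, and none of 22 signal peptide and translocon genes, had a 2-fold range, against 11.0% of all genes. Their median ranges were 1.26 and 1.23, against 1.33 for all genes. Among all genes between 100 and 300 CPM the median range was 1.26 and 2.79% had a 2-fold range. Evenness was thus not particular to the ER lists. The chaperone list took 1.37% ± 0.0645 of counts (SD, n = 4). P4hb and Pdia3, which form disulfide bonds, stood at 1086 ± 56.0 TPM and 1051 ± 96.8 TPM, and Hspa5, the chaperone BiP, at 943 ± 66.0 TPM (SD, n = 4 for each). In TPM all 3 ranked among the 53 most abundant genes, in a range of at most 1.29-fold. The widest members of the list were still within 2-fold: Trib3, a pseudokinase induced by ATF4, stood at 115, 106, 142 and 85.7 CPM and Ero1l, an oxidase of the ER, at 95.7, 95.0, 123 and 76.6 CPM, both highest in replicate 3 and lowest in replicate 4. Ddit3, which encodes CHOP, stood at 57.4, 58.4, 63.3 and 47.0 CPM and Atf4 at 489.7, 565, 619 and 552 CPM.

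Genes encoded by mitochondria had wider ranges than nuclear genes of oxidative phosphorylation, while both sets were mostly highest in replicate 4. Of 13 mitochondrial genes above 1 CPM, 10 of 13 had a 2-fold range (76.9%, against 11.0% of all genes), 12 were highest in replicate 4, against 30.4% of all genes, and 10 lowest in replicate 1. Without replicate 4 the count was 1 of 13, and without replicate 1 it was 5 of 13. The full list of 37 mitochondrial genes took 1.22, 1.68, 1.67 and 2.67% of counts, and 9 of the 37 had no count. Those above 1 CPM were 8 of the 13 protein-coding genes and 5 genes of ribosomal or transfer RNA. Why the other mitochondrial genes were low or missing was not tested. The highest in TPM, mt-Cytb, a subunit of complex III, stood at 2371, 3614, 3683 and 6106 CPM, and mt-Co1, a subunit of complex IV, at 3800.1, 4907, 4990.0 and 7456 CPM, both in the order of replicate 1 lowest and replicate 4 highest. The ribosomal RNA mt-Rnr2 stood at 113, 136, 144 and 406 CPM, with replicate 4 well above the other 3. None of 78 nuclear genes of oxidative phosphorylation had a 2-fold range, with a median of 1.32, although 65 of them were highest in replicate 4, against 30.4% of all genes. Atp5a1, for the alpha subunit of ATP synthase, was among the most even genes of all at 622, 622, 626 and 629 CPM. Cytosolic ribosomal protein genes shared the lean to replicate 4, with 77 of 82 highest there and a share of 1.49, 1.51, 1.54 and 1.86% of counts, and 1 of 82, Rps29, had a 2-fold range at 45.0, 101, 106 and 133 CPM, which it lost without replicate 1. Ribosomal protein genes have many processed copies, so counts per gene are uncertain. Proteasome genes were highest in replicate 4 in 30 of 37 and lowest in replicate 1 in 31, where all genes gave 30.4% and 30.3%. Of the 37, 1 had a 2-fold range (2.70%, against 11.0% of all genes), Psmb10 of the immunoproteasome, at 33.0, 58.1, 54.4 and 67.8 CPM, and none without replicate 1 or without replicate 4. Many subunit genes are short. In replicate 4 the median log2 deviation was 0.25 for ribosomal, 0.22 for respiratory and 0.19 for proteasome genes and 0.13 for the class of shortest genes, and the part of gene length was not tested.

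Metabolic genes showed other orders of the mice. Of 24 genes of cholesterol synthesis and uptake, 23 were lowest in replicate 1, against 30.3% of all genes, and 5 of 24 had a 2-fold range (20.8%, against 11.0%), none without replicate 1. Hmgcs1, for an early step of sterol synthesis, stood at 141, 320.2, 258 and 228 CPM, and Mvd, a later step, at 13.0, 28.5, 26.9 and 30.3 CPM. Of 21 glycolysis genes, 5 of 21 had a 2-fold range (23.8%, against 11.0% of all genes), and 13 were lowest in replicate 2, against 19.4% of all genes (3 of 21 without replicate 2 and 3 of 21 without replicate 1). Aldoa, an aldolase, led the list in TPM and stood at 724, 677, 877 and 749.7 CPM, and Ldha, for lactate dehydrogenase A, stood at 38.6, 13.5, 36.6 and 34.4 CPM, where replicate 2 lay apart below the others. Of 17 hypoxia target genes, 4 of 17 had a 2-fold range (23.5%, and 2 of 17 without replicate 2), Car9, a carbonic anhydrase, among them at 2.18, 1.00, 4.48 and 0.944 CPM. Antioxidant genes were lowest in replicate 1 in 18 of 22, against 30.3% of all genes, with 3 of 22 at a 2-fold range (13.6%, close to the 11.0% of all genes, and 0 of 22 without replicate 4 and 1 of 22 without replicate 1). Sqstm1, for the autophagy receptor p62, was the highest of them in TPM, at 1049.9, 1377, 1596 and 1368 CPM, and Gpx1, a glutathione peroxidase, had a 2.53-fold range, at 68.8, 120.1, 117 and 174 CPM. Of 17 clock genes, 1 had a 2-fold range (5.88%, against 11.0% of all genes, and none without replicate 1). It was Npas2, at 14.5, 28.6, 41.2 and 39.7 CPM, and the median range of the list was 1.30.

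Acinar transcripts differed between mice as a block. The enzymes they encode are made outside islets, and their share of counts was 0.706, 1.26, 2.45 and 0.383%, a mean of 1.20% ± 0.908 (SD, n = 4), or 0.784% without replicate 3. Of 34 acinar genes above 1 CPM, 33 of 34 had a 2-fold range (97.1%, against 11.0% of all genes), 31 were highest in replicate 3 and 31 lowest in replicate 4, against 19.3% and 36.3% of all genes. The exception to the 2-fold range was Bhlha15, a factor that other secretory cells also express, at 79.6, 78.1, 76.2 and 74.3 CPM. Ctrb1, a chymotrypsinogen, ranked 6 by mean TPM and stood at 2354, 3279, 6678 and 1097 CPM. Prss2, a trypsinogen, stood at 605, 936, 2196 and 344 CPM and Sycn, for syncollin, at 160.5, 293, 556 and 90.5 CPM, both in the order that Ctrb1 showed. Dmbt1, a mucosal glycoprotein, had the widest range of the list, at 71.9, 341, 1004 and 157 CPM. The acinar factor Ptf1a was close to 1 CPM or below it in 3 mice, at 0.529, 0.969, 4.22 and 0.371 CPM, with replicate 3 apart from the others. Trypsinogen and amylase genes have near-identical copies, so their counts per copy are uncertain, and Amy2a5 had no count in any of the 4 libraries.

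The upstream window of Prss2 (RefSeq, GRCm38.p6, plus strand, chr6:41521526-41521775, 250 bases before the start) is shown as a member of this block, with both parts of the site known for the acinar factor PTF1 searched: CACCTG and, on the other strand, TTTCCC, which reads GGGAAA here. The capitals mark 1 match of the first, at 169 to 164 bases before the start, and 2 of the second, at 110 to 105 and 78 to 73. The parts were searched separately, with no limit on the distance between them.
Prss2: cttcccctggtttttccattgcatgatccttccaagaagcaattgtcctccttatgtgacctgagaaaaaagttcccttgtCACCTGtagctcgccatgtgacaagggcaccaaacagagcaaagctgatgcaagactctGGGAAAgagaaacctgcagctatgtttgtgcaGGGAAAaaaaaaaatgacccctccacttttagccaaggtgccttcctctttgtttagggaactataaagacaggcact

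Of 26 acinar genes with a window, 15 held CACCTG and 7 held TTTCCC on either strand, and 5 held both, against 19.4%, 24.4% and 4.20% of all 27025 genes with a window. A window that held both, at any distance, need not hold a PTF1 site.

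The Reg family, secreted lectins of the exocrine pancreas that are also made in stressed islets, had a median range of 17.29-fold, against 7.36-fold for the acinar list. All 6 members above 1 CPM had a 2-fold range and were highest in replicate 3, against 19.3% of all genes, and the list took 0.0217, 0.0319, 0.132 and 0.0126% of counts. Reg1 stood at 115, 235, 732 and 76.1 CPM and Reg2 at 65.5, 39.2, 272 and 31.3 CPM. Reg3b stood at 18.0, 31.6, 217 and 12.0 CPM and Reg3a at 7.34, 3.17, 55.9 and 1.65 CPM. For each of these genes replicate 3 lay far above the other 3 mice. The Reg3 genes are close copies of each other, so their counts per copy are uncertain. Duct markers were a mixture: 8 of 16 had a 2-fold range (against 11.0% of all genes, and 4 of 16 without replicate 4). Krt8, an epithelial keratin, stood at 325, 394, 663 and 316 CPM, highest in replicate 3, Spp1, for osteopontin, at 291, 338, 386 and 763 CPM, highest in replicate 4, and Krt7, another keratin, even at 935, 847, 859 and 841 CPM. Tff2, a trefoil peptide, followed the acinar order at 6.21, 11.2, 25.1 and 5.12 CPM, and the duct channel gene Cftr stayed below 1 CPM in every library.

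**Figure D3:**
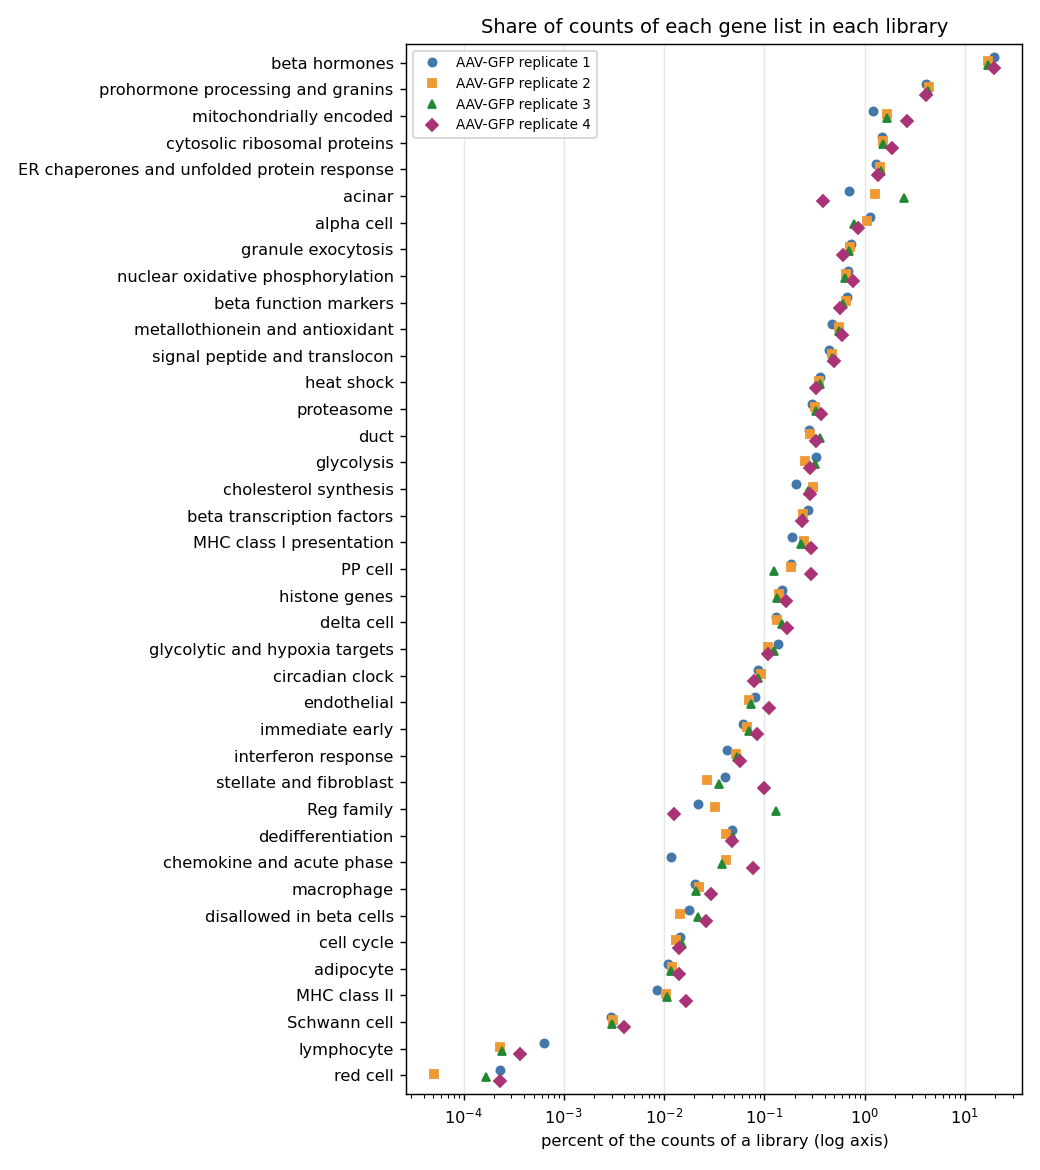
Percent of a library's counts taken by each of 39 gene lists, on a log axis, 1 point per AAV-GFP library, ordered by mean. Beta hormones take 16.9% to 19.7%, acinar genes 0.383% to 2.45%, and lymphocyte and red cell genes the least.

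Stromal transcripts set replicate 4 apart. Of 23 stellate cell and fibroblast genes above 1 CPM, all were highest in replicate 4 and 22 lowest in replicate 2, against 30.4% and 19.4% of all genes, and 21 of 23 had a 2-fold range (91.3%, against 11.0%). Without replicate 4 the count was 8 of 20, and the share of counts was 0.0403, 0.0267, 0.0350 and 0.0991% over the 4 mice. Col1a1, a chain of type I collagen, stood at 19.9, 4.91, 11.7 and 83.1 CPM, and Dcn, for the matrix proteoglycan decorin, at 3.94, 1.32, 2.76 and 18.5 CPM. Timp1, an inhibitor of matrix proteases, stood at 3.97, 2.39, 3.54 and 23.2 CPM, and Sparc, a matrix protein made by several cell types, at 130.2, 109, 135 and 278 CPM. The pericyte gene Rgs5 differed little, at 53.3, 52.8, 62.9 and 78.0 CPM. Of 19 endothelial genes, 14 were highest in replicate 4 and 4 of 19 had a 2-fold range (21.1%), none without replicate 4. Plvap, of fenestrated capillaries, stood at 81.5, 84.5, 78.4 and 183 CPM and Eng, for endoglin, at 60.5, 59.6, 59.6 and 132 CPM, whereas Cdh5, for VE-cadherin, stood at 74.1, 62.2, 75.0 and 83.0 CPM. Adhesion molecules of activated endothelium were the extreme: Selp, for P-selectin, had 61, 24, 1 and 577 counts, Sele, for E-selectin, 6, 6, 0 and 160, and Ackr1, a chemokine receptor of venules, 12, 7, 0 and 107. No fold is given for these 3, because replicate 3 had at most 1 count of each.

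Immune cell markers were low. The macrophage list took 0.0202, 0.0221, 0.0207 and 0.0296% of counts, with 18 of 21 genes highest in replicate 4, against 30.4% of all genes, and 9 of 21 at a 2-fold range (42.9%, against 11.0%, and 2 of 21 without replicate 4, 4 of 21 without replicate 1 and 6 of 21 without replicate 3). C1qa, a complement component made by tissue macrophages, was highest in TPM and stood at 41.8, 47.9, 46.3 and 55.0 CPM, an even level, and Lyz2, a lysozyme, stood at 18.6, 19.3, 12.6 and 26.9 CPM. Of 18 lymphocyte markers, 2 had a mean of at least 1 CPM, and the defining T and B cell genes Cd3e, Cd3d, Cd8a and Ms4a1 had no count in any of the 4 libraries. Immunoglobulin transcripts were mostly those of replicate 1: Igha, the constant region of IgA, had 306, 0, 0 and 0 counts and Igkc, of the kappa light chain, 166, 4, 5 and 17. Red cell genes stayed below a mean of 1 CPM. Of the adipocyte list, Pparg, Fabp4, Cd36 and Lpl passed 1 CPM, genes that other cells also express, while Lep had no count and Adipoq, for adiponectin, at most 1 count in a library. Schwann cell genes were low, together 0.00396% of counts in replicate 4, where their share was highest.

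Inflammatory genes set replicate 1 apart, and in the other direction. Of 15 chemokine and acute phase genes above 1 CPM, 13 of 15 had a 2-fold range (86.7%, against 11.0% of all genes), and 13 were lowest in replicate 1, against 30.3% of all genes. Without replicate 1 the count was 8 of 16, and the share of counts was 0.0117, 0.0418, 0.0378 and 0.0766%. Nos2, the inducible nitric oxide synthase that cytokines switch on in beta cells and macrophages (chromosome 11, 78920787 to 78960254), had 10, 901, 822 and 888 counts, or 0.220, 29.1, 21.4 and 29.9 CPM, a 136-fold range. Replicate 1 therefore lay far below 3 mice that lay close together. Ccl20, a chemokine, had 2, 99, 149 and 103 counts, of which the 2 in replicate 1 are under the floor. Cxcl1, a neutrophil chemokine, stood at 0.353, 7.66, 5.52 and 11.5 CPM, and the complement gene Cfb at 0.617, 11.0, 8.78 and 16.8 CPM. Lcn2, for the iron-binding lipocalin 2, stood at 9.96, 93.3, 107 and 333 CPM, and Icam1, an adhesion molecule, at 2.86, 36.2, 23.4 and 69.1 CPM, both with replicate 4 highest as well as replicate 1 lowest. Nfkbia, for the inhibitor of NF-kB, itself switched on by that factor, was the highest of the list in TPM and stood at 48.3, 159, 135 and 167 CPM. Other genes low in replicate 1 were Steap4, a metalloreductase, at 2.36, 82.6, 68.4 and 129.8 CPM, Gbp4, a guanylate binding protein, at 0.617, 31.3, 21.0 and 24.5 CPM, and Vnn3, a pantetheinase, at 0.331, 11.1, 9.48 and 19.0 CPM. Serpina3f and Acod1, for the enzyme that makes itaconate, had no count in replicate 1 and 0, 166, 154 and 166 and 0, 43, 35 and 88 counts over the 4 mice. Macrophage markers in replicate 1 took 0.0202% of counts against 0.0207% to 0.0296% in the others, with 14 of 21 lowest there and a median log2 deviation of -0.24, and their part in these values was not tested.

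The upstream windows of 3 of these genes are printed because they carry the NF-kB consensus, a 10-base motif, in capitals (RefSeq, GRCm38.p6, 250 bases before the start, read 5′ to 3′ along the gene). The window of Cxcl1 is chr5:90890995-90891244 on the plus strand, with overlapping matches on both strands at 71 to 61 bases before the start. That of Ccl20 is chr1:83116516-83116765 on the plus strand, with a match at 80 to 71, and that of Nfkbia is chr12:55492648-55492897 on the minus strand, with a match at 29 to 20.
Cxcl1: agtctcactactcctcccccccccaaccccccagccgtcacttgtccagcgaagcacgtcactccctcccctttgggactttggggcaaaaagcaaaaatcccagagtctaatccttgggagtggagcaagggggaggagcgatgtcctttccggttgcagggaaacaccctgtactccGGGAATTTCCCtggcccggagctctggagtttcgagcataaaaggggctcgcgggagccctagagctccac
Ccl20: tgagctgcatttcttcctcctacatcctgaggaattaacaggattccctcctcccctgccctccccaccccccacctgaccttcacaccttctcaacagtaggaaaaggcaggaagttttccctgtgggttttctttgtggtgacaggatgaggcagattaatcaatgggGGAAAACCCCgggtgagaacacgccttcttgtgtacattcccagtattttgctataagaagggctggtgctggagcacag
Nfkbia: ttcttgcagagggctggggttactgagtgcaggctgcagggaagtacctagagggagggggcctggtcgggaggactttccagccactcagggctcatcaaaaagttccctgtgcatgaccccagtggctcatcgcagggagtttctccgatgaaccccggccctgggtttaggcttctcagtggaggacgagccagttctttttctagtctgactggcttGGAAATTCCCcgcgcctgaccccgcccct

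Of the 15 genes of the list, 11 had a window and 6 of these held the consensus on either strand: Ccl20, Cxcl1, Cxcl10, Il6, Nfkbia and Tnfaip3. Over all 27025 genes with a window the share was 8.23%. Icam1, Lcn2, C3, Cx3cl1 and Saa3 had none in this window. These matches describe letters only, and the share depends on which genes the list holds. It says nothing about the differences between these libraries.

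Antigen presentation and interferon genes were mostly low in replicate 1 and high in replicate 4, with smaller ranges. Of 13 genes of MHC class I presentation, 11 were lowest in replicate 1 and 11 highest in replicate 4, against 30.3% and 30.4% of all genes, and 4 of 13 had a 2-fold range (30.8%, against 11.0%, and 1 of 13 without replicate 1 and 1 of 13 without replicate 4). H2-D1 and H2-K1, the classical heavy chains, stood at 533, 711, 680.3 and 815 and 600.2, 758, 708 and 845 CPM, and B2m, their light chain, at 53.9, 59.6, 75.6 and 161 CPM with replicate 4 highest. Reads of the class I heavy chain genes can be shared between near-identical copies. Of 26 interferon response genes, 17 were lowest in replicate 1 and 14 highest in replicate 4, and 7 of 26 had a 2-fold range (26.9%, and 3 of 26 without replicate 1 and 3 of 26 without replicate 4), with Gbp2, a guanylate binding protein, the widest, at 2.03, 7.04, 6.09 and 11.3 CPM. Other interferon targets were nearly level, such as Usp18, a protease, at 32.1, 27.7, 29.5 and 29.0 CPM and the GTPase gene Igtp at 14.8, 14.7, 14.9 and 14.8 CPM. Of 5 MHC class II genes above 1 CPM, 3 had a 2-fold range (60%, against 11.0% of all genes), and none did without replicate 1 or without replicate 4. Cd74, the invariant chain, stood at 45.3, 57.8, 62.5 and 91.0 CPM or 2.01-fold, which became 1.95-fold when libraries were scaled by total counts.

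Replicate 4 also stood apart for genes of secreted cytokines. Il11 stood at 7.03, 4.68, 5.60 and 68.3 CPM, and Il6, another cytokine of the same receptor family, at 1.98, 1.87, 1.80 and 17.3 CPM, with 3 mice close together and replicate 4 far above. Lrg1, a secreted glycoprotein of inflammation, stood at 0.683, 3.10, 5.13 and 28.2 CPM, and Cxcl14, a chemokine, at 2.29, 1.16, 1.41 and 15.4 CPM. Of genes low in replicate 4, Hipk2, a kinase, stood at 74.9, 91.5, 77.2 and 13.6 CPM and Srcap, a chromatin remodeler, at 7.69, 8.08, 8.70 and 2.43 CPM, with 3 mice close together again. Sytl5, a Rab27 effector, stood at 33.8, 35.6, 31.2 and 10.8 CPM. The stromal list was highest in the same library, at 0.0991% of counts against 0.0267% to 0.0403%, and its part in these values was not tested.

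**Figure D4:**
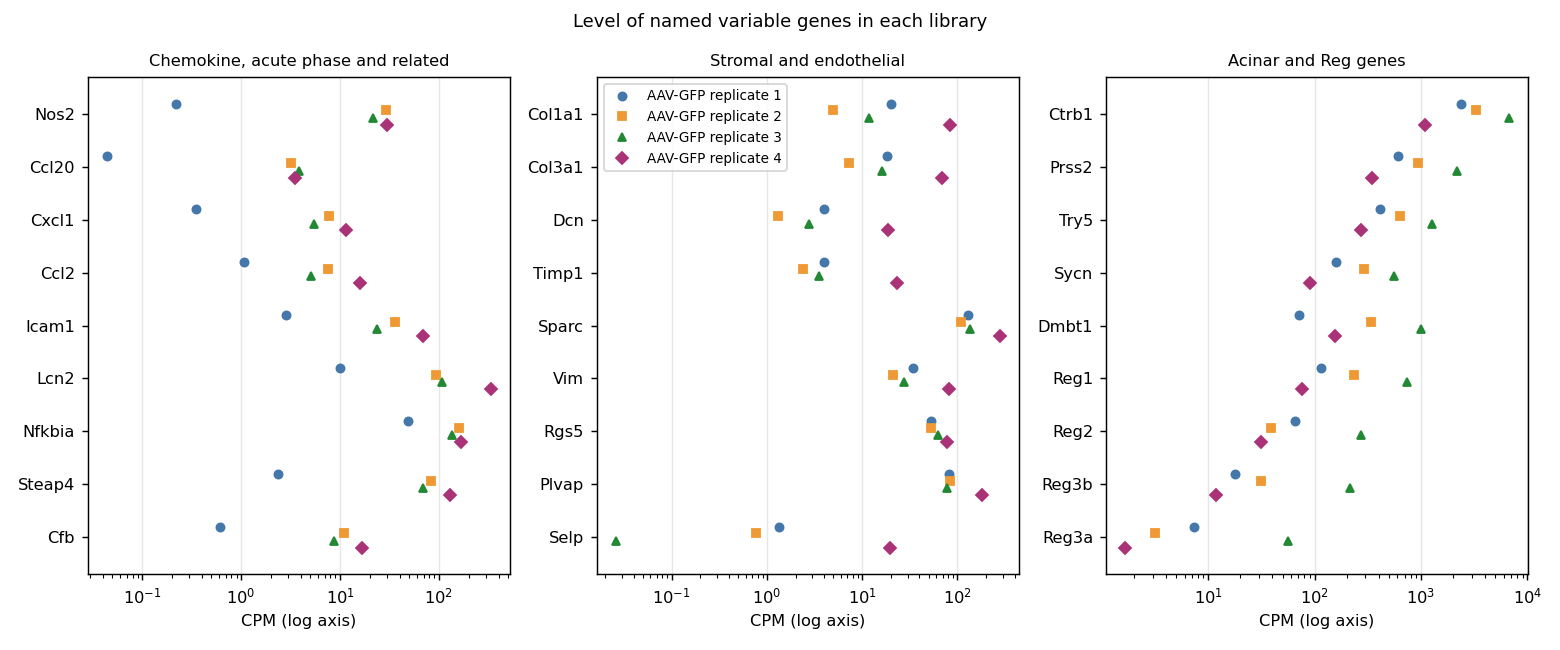
CPM on a log axis of named genes in each AAV-GFP library. Left, chemokine, acute phase and related genes, with replicate 1 lowest throughout. Middle, stromal and endothelial genes, with replicate 4 highest throughout. Right, acinar and Reg genes, with replicate 3 highest and replicate 4 lowest, except that Dmbt1 is lowest in replicate 1.

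Genes high in replicate 1 were of other kinds. Lars2, for the mitochondrial leucyl-tRNA synthetase, stood at 1591, 237, 584 and 80.4 CPM, a 19.8-fold range in which no mice lay close together. Mir6236, an annotated microRNA, had the same order, at 38.0, 10.4, 32.2 and 3.44 CPM, and Gm23935, at 219, 109, 288 and 46.9 CPM, was also high in replicates 1 and 3 and low in replicate 4. Whether the reads counted for Lars2, Mir6236 and Gm23935 come from the transcripts of those names was not tested. Their values are therefore not read as levels of an enzyme or of microRNAs. Rgs11, a regulator of G protein signalling, stood at 109.7, 24.2, 30.6 and 31.7 CPM, Pcsk4, a convertase known from germ cells, at 52.1, 16.4, 21.1 and 20.9 CPM, and Col27a1, a fibrillar collagen, at 57.8, 16.4, 19.8 and 13.1 CPM, in each case with replicate 1 alone above. The long noncoding RNAs Meg3 and Neat1 stood at 427, 159, 218 and 205 and 312, 122, 223 and 199.8 CPM.

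Genes used to judge loss of beta cell identity ran from absent to abundant. The 22 genes normally kept low in beta cells that passed 1 CPM took 0.0177, 0.0144, 0.0216 and 0.0260% of counts, 13 of 22 had a 2-fold range (59.1%, against 11.0% of all genes, and 4 of 21 without replicate 4), and 17 were highest in replicate 4, against 30.4%. Cells other than beta cells express many of them, and the stromal list was highest in the same library, at 0.0991% of counts. The part of other cells in these values was not tested. Of 12 genes linked to dedifferentiation, 4 of 12 had a 2-fold range (33.3%, and 1 of 12 without replicate 4). Serpina7, for a carrier of thyroid hormone, was the highest of them at 159 ± 29.5 TPM (SD, n = 4), rank 544. Aldh1a3, an aldehyde dehydrogenase of dedifferentiated beta cells, stood at 172, 120.1, 168 and 107 CPM, and Neurog3, the factor of endocrine progenitors, at 30.5, 22.0, 22.4 and 18.4 CPM. Gast, for gastrin, stood at 9.65, 6.49, 5.81 and 10.8 CPM, and the pluripotency gene Pou5f1 had no count in any of the 4 libraries. Cell cycle genes were low. Of 24 above 1 CPM, 7 of 24 had a 2-fold range (29.2%, against 11.0% of all genes, and 1 of 23 without replicate 4 and 4 of 22 without replicate 3). Of all genes, 37.6% between 1 and 3 CPM and 18.6% between 3 and 10 CPM had a 2-fold range. In the cell cycle list 15 genes were lowest in replicate 4, against 36.3% of all genes. Top2a, a topoisomerase of dividing cells, stood at 2.82, 2.16, 4.77 and 0.944 CPM, whereas Pcna, also used in repair, stood at 32.5, 34.8, 35.6 and 41.4 CPM. Immediate early genes, which respond to handling, gave 4 of 21 at a 2-fold range (19.0%, and 2 of 21 without replicate 1 and 0 of 19 without replicate 4), with Junb at 60.9, 102, 92.5 and 153 and Btg2 at 134, 151, 168 and 154 CPM. Of 17 heat shock genes, 2 had a 2-fold range (11.8%, close to the 11.0% of all genes), Hspa1a at 2.69, 0.549, 1.61 and 1.58 and Hspb1 at 8.68, 7.59, 18.0 and 9.94 CPM (1 without replicate 2 or without replicate 3). Hsp90ab1, the constitutive chaperone, stood at 1514, 1568, 1609.6 and 1484 CPM. Of 25 histone genes, 1 had a 2-fold range (4%, against 11.0% of all genes, and none without replicate 4). It was the linker histone gene H1fx, at 16.2, 23.2, 20.7 and 68.5 CPM.

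**Figure D5:**
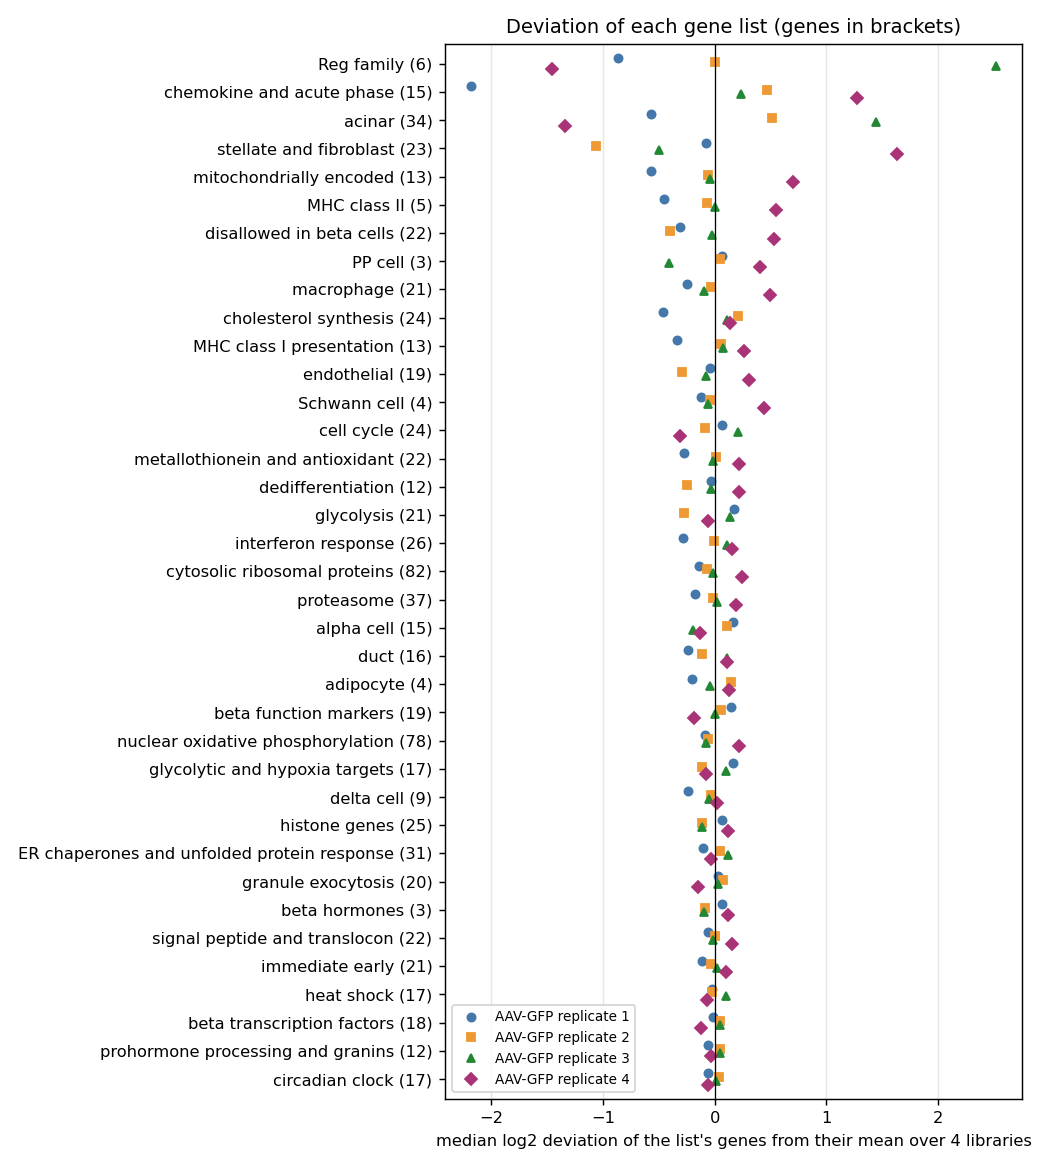
Median log2 deviation of the genes of each list from their own mean over the 4 libraries, 1 point per AAV-GFP library, for lists with at least 3 genes above 1 CPM, ordered by the distance between the highest and lowest library. The Reg family reaches 2.52 in replicate 3, the chemokine list -2.18 in replicate 1 and the stellate list 1.63 in replicate 4, while the granin, beta cell factor and clock lists stay close to 0.

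At the other end stood genes that 4 mice expressed alike. Fxr2, an RNA-binding protein gene, stood at 117, 116, 116 and 117 CPM, and Vrk3, a kinase, at 39.8, 39.3, 39.8 and 39.8 CPM. Samm50, of the mitochondrial outer membrane, stood at 66.4, 67.2, 66.8 and 67.2 CPM and Npepps, an aminopeptidase, at 124, 123, 125 and 124 CPM. These are the smallest spreads among 13777 genes, chosen for that, and the differences shown are smaller than counting error alone would give.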

How the data were processed

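Messenger RNA of 4 libraries was analysed, 1 for each db/db mouse given AAV-GFP. The authors deposited whole-number counts per Ensembl gene, with no normalization, in 1 table. The kit marks strand, per the labels' protocols, and STAR and the builds mm10 and GRCm38 are named in the submitters' processing notes. The sources used here do not give the counting tool, its strand setting or the annotation, and reads of overlapping and antisense genes may be shared. Gene names, exon lengths and positions came from GENCODE mouse release 21 (GRCm38), in which 193 identifiers (0.0108% of counts) had no entry.

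CPM is a count divided by the library total times its TMM factor (edgeR 4.0.16, R 4.3.3), and TPM divides counts by the union of a gene's exons. The range of a gene is its highest over its lowest CPM, taken over genes with a mean of at least 1 CPM. Biological variation came from edgeR's dispersion with an intercept only, and log2 CPM used a prior count of 2. On counts simulated with a biological coefficient of variation of 0.2, the estimate was 0.222. The simulated counts also held genes raised several-fold in a randomly chosen library, so the estimate includes that added spread. Python 3.11.15 with numpy 2.4.6, pandas 2.3.3 and matplotlib 3.10.9 was used for the rest, and DESeq2 1.42.0 for alternative scaling.

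Named genes were the 20 highest in mean TPM, the 6 hormone markers, the 4 highest members in TPM and the 2 widest members of each of 39 gene lists, the 15 most and 10 least variable genes, and up to 6 genes that stood furthest above or below all other libraries in each library. Atf4, Bhlha15, C3, Cela1, Clu, Cx3cl1, Cxcl10, Ddit3, Ddx3y, Gipr, Kcnj11, Krt7, Lepr, Mafa, Meg3, Myt1, Neat1, Pcsk1, Pcsk2, Pdx1, Shisal2b, Slc2a2, Tnfaip3, Xist, mt-Nd4 and the markers given only as absent or below 1 CPM fall outside that rule and were chosen after their values were seen. The lists and this group were chosen with earlier results of these data known. Of 932 genes in any list, 755 had a mean of at least 1 CPM, and 182 of these 755 had a 2-fold range, against 11.0% of all genes. The 182 were 12.0% of the 1518 genes with a 2-fold range. Promoter windows are those of RefSeq (GRCm38.p6), 32851 windows of 27025 genes. The alternatives tried were other scalings, filters, fold limits, denominators, thinned counts, other lengths and each library left out. Some genes of the lists are not reported here. The counts per list with each library left out were added after the data were seen.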

Additional observations from a re-analysis of the deposited data

Results flagged for a closer look

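For each of the 39 list shares and 257 named genes, the library furthest from the rest was compared with the spread of all 4 by Dixon's limit, and 50 of 296 quantities passed it, where chance alone would give about 1 in 20. The quantities are not independent, and many were named for their spread, so the number is a description only. Replicate 4 was the high library in 26 of the 50, replicate 1 in 10 and replicate 3 in 9. Values are given as the library that stands apart against the lowest to highest of the other 3.

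In replicate 4, 2 gene groups took a larger share of counts, Schwann cell markers at 0.00396 against 0.00295 to 0.00309% and cytosolic ribosomal protein genes at 1.86 against 1.49 to 1.54%. Among stromal genes, Sparc stood at 278 against 109 to 135, Timp1 at 23.2 against 2.39 to 3.97 and Dcn at 18.5 against 1.32 to 3.94 CPM. The endothelial genes were Plvap at 183 against 78.4 to 84.5, Eng at 132 against 59.6 to 60.5, the endothelial factor gene Sox18 at 31.2 against 9.43 to 12.5, Selp at 19.4 against 0.0260 to 1.34, Sele at 5.39 against 0 to 0.194 and Ackr1 at 3.61 against 0 to 0.264 CPM. Cytokine and inflammation genes were Il11 at 68.3 against 4.68 to 7.03, Il6 at 17.3 against 1.80 to 1.98, Cxcl14 at 15.4 against 1.16 to 2.29 and Lrg1 at 28.2 against 0.683 to 5.13 CPM. The macrophage protease gene Ctss stood at 38.2 against 22.2 to 24.7 CPM, and the duct gene Car2, for carbonic anhydrase 2, at 7.15 against 0.729 to 1.43 CPM. Genes usually low in beta cells were Mgst1 at 16.2 against 3.91 to 5.46 and Cd302 at 3.51 against 0.529 to 0.807 CPM. Others were Hhex at 13.6 against 5.65 to 6.14, mt-Rnr2 at 406 against 113 to 144, the ribosomal stalk gene Rplp1 at 342 against 261 to 273, the transcription factor gene Jund at 131 against 75.5 to 81.2, H1fx at 68.5 against 16.2 to 23.2, the glutathione transferase gene Gsta4 at 26.3 against 1.41 to 4.88 and Dio2, a deiodinase of thyroid hormone, at 3.74 against 0.0323 to 0.375 CPM. Srcap was the 1 gene low in replicate 4, at 2.43 against 7.69 to 8.70 CPM.

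In replicate 3, the Reg family took a larger share of counts, 0.132 against 0.0126 to 0.0319%. Its members were Reg2 at 272 against 31.3 to 65.5, Reg3a at 55.9 against 1.65 to 7.34, Reg3b at 217 against 12.0 to 31.6, Reg3d at 31.6 against 1.92 to 6.62 and Reg3g at 41.0 against 1.39 to 6.23 CPM. The acinar factor Ptf1a stood at 4.22 against 0.371 to 0.969 CPM, the nucleotide reductase gene Rrm2, active in dividing cells, at 8.85 against 6.96 to 7.27 CPM, and Zyx, for the adhesion protein zyxin, at 55.1 against 27.5 to 31.1 CPM.

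In replicate 1, the high genes were Mlxipl at 498 against 229.7 to 269, Doc2b at 3.97 against 1.94 to 2.16, Rgs11 at 109.7 against 24.2 to 31.7, Pcsk4 at 52.1 against 16.4 to 21.1, the noncoding RNA Snhg11 at 41.5 against 13.6 to 16.8 and the complex I gene Ndufs5 at 2.29 against 1.25 to 1.29 CPM. The collagen genes Col11a2 and Col27a1 stood at 21.2 against 5.62 to 6.56 and at 57.8 against 13.1 to 19.8 CPM, and the immunoglobulin genes Igha and Igkc at 6.74 against 0 and at 3.66 against 0.129 to 0.573 CPM. Pparg and Ssr3, for a translocon subunit, were low there, at 24.8 against 35.8 to 37.6 and at 382 against 473 to 482 CPM. In replicate 2, Ldha was low, at 13.5 against 34.4 to 38.6 CPM. The gap of Vrk3, with replicate 2 at 39.3 against 39.8 CPM, lies within counting error, whose coefficient of variation is 2.68% for this gene.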

How the results depend on the processing

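The number of genes with a 2-fold range was 1518, and it moved with the filter and the fold: 632 of 11110 genes at 5 CPM or more, 5699 of 19296 genes with a count in every library, 4115 at 1.5-fold and 527 at 3-fold. Leaving out each library in turn gave 620 to 1379, the lowest without replicate 4. Scaling by library totals gave 1553, the size factors of DESeq2 1499 and thinning to the smallest library 1521. The biological coefficient of variation was 0.117 as the median gene-wise value of DESeq2, and 0.157 to 0.226 with a library left out. Beta hormones took 4.60% of counts with Ins1 and Ins2 out of the list and the total, which leaves Iapp alone. Ranked by share of counts, Gcg came to rank 7, Ppy to 40 and Sst to 103. Of 250 named genes with a range, 5 crossed the 2-fold mark under another scaling (Cd74, Pdyn, Psmb10, Ucn3 and Zyx), 40 fell under it without replicate 1 and 47 without replicate 4. Of 34 other list shares, 24 moved with Ins1 and Ins2 out of the denominator. No paired analysis was possible because a single group is described and no groups are compared. Counting error matters below about 3 CPM, where its median was 13.0% against a total variation of 25.2%, and shared copies limit trypsinogen, amylase, Reg3 and H2 genes at any depth.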

Other observations

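Some genes outside the lists had counts in only some of the mice. Capn11, a calpain, had 4, 102, 4 and 113 counts, with replicates 2 and 4 high and replicates 1 and 3 near the floor. Smt3h2-ps, a pseudogene, had 74, 93, 96 and 0 counts. On the first principal component of log2 CPM, which held 54.5% of the variance, replicate 4 scored 42.6 and the other 3 between -22.6 and -9.45. On the second, with 35.8%, replicate 1 scored 30.2 and replicate 4 7.26, with replicates 2 and 3 at -18.8 and -18.7.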
